A study of Homo sapiens with 8 samples.

Results

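The genes described here encode the proteins of the mitochondrial ribosome. They were chosen by name, as protein-coding symbols of the form MRPL or MRPS followed by a number and at most 1 letter. The naming rule uses no measured value, but earlier results of these data were known when the family was chosen. This gave 77 of the 20037 protein-coding genes that RefSeq places on the numbered chromosomes, X and Y in GRCh38.p14: 49 with MRPL symbols, named for the large subunit, and 28 with MRPS symbols, named for the small subunit.

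Binding of NF-Y was mapped with CUT&RUN: an antibody brings a nuclease to the protein, and the DNA fragments it cuts free are sequenced. RH30 and RH4 are established cell lines from rhabdomyosarcoma, a tumour with features of skeletal muscle, and both are positive for the PAX3-FOXO1 fusion. RH30 cells engineered with an inducible cytosine base editing system received 1 guide RNA each, either sgCCAAT2a or sgCCAAT2b, both aimed at a CCAAT of the endogenous PAX3 promoter, or a control, sgCtrl1 or sgCtrl2. All of these RH30 cells, controls included, went through blasticidin selection and rapamycin, which starts editing, and were collected 8 days after rapamycin was added. RH4 cells were uninfected and untreated. NFYB was profiled in each of the 4 RH30 cultures and in RH4, and NFYC in RH4. The sgCCAAT2a and sgCCAAT2b libraries are called edited below; editing itself was not analysed here, and no guide was aimed at a gene described here. The 5 libraries titled RH30, 1 of them IgG, carry RH4 as source name and cell line, and the title, which goes with the treatment protocol, was used. Each of the 6 peak lists comes from 1 library, so there is no replicate and no test between conditions, and 95% intervals cover the counting of genes only.

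Mitochondrial ribosomes translate the few proteins encoded by mitochondrial DNA, which are core subunits of the respiratory chain and ATP synthase. Their RNA comes from the mitochondrial genome, whereas their proteins are encoded in the nucleus, made in the cytosol and imported. Many of these nuclear genes have compact promoters without a TATA box, and some share the promoter with a gene read in the opposite direction. NF-Y is a trimer in which NFYB and NFYC form a histone-like dimer and NFYA recognises the pentanucleotide CCAAT, usually close to a transcription start. The promoter between MRPS12 and its neighbour SARS2, the mitochondrial seryl-tRNA synthetase, has been described earlier as one with CCAAT boxes bound by NF-Y.

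A gene was counted as bound in a list when a peak overlapped the 1000 bp either side of one of its ends. The genes bound in every list are named first, because the results turn on their promoters. MRPL18, MRPL37, MRPL50, MRPL51, MRPS12, MRPL4 and MRPS30 had a peak in all 6 lists. MRPL18 lies at chr6:159789812-159798429 on the plus strand, MRPL37 at chr1:54200167-54225489 on the plus strand, and MRPL50 at chr9:101387633-101398618 on the minus strand. MRPL51 lies at chr12:6491886-6493262 on the minus strand and MRPS12 at chr19:38930944-38933168 on the plus strand. MRPL4 lies at chr19:10251951-10260055 and MRPS30 at chr5:44808947-44815514, both on the plus strand.

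Stretches of 100 bases before the starts of these genes are given below from the RefSeq promoters of GRCh38.p14, 5′ to 3′ on the strand of the gene. Capitals mark CCAAT, which is the sequence NF-Y binds, or ATTGG, which is CCAAT on the other strand. The MRPL18, MRPL37, MRPL50, MRPL51 and MRPL4 stretches end at the last base before the start. They are chr6:159789712-159789811, chr1:54200067-54200166, chr9:101398619-101398718, chr12:6493263-6493362 and chr19:10251851-10251950. The MRPS12 stretch, chr19:38930787-38930886, runs from base 157 to base 58 before the start. The MRPS30 stretch, chr5:44808808-44808907, runs from base 139 to base 40.
MRPL18: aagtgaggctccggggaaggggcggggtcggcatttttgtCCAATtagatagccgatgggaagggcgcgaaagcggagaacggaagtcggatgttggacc
MRPL37: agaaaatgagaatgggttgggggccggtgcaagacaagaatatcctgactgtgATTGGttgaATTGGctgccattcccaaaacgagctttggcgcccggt
MRPL50: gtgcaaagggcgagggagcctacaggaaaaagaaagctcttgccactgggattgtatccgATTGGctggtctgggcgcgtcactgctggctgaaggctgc
MRPL51: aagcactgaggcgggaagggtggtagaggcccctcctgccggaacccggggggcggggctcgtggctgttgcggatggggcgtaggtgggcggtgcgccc
MRPS12: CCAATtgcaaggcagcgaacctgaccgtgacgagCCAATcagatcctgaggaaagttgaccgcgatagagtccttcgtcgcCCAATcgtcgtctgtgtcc
MRPL4: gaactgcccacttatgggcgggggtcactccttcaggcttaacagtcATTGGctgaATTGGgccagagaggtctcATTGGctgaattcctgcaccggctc
MRPS30: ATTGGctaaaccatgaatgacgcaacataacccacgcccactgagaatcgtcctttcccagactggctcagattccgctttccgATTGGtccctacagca

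MRPL51 is the exception in this set: its stretch holds no capital. In each list it had a peak that lay nearer to the neighbouring start of NCAPD2, a subunit of condensin, which packs chromosomes for mitosis. The 100 bases before NCAPD2, chr12:6494002-6494101 on the plus strand, were chosen after the values were seen and are shown for that reason.
NCAPD2: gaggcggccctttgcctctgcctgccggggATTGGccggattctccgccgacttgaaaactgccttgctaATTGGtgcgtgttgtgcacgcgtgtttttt

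For contrast, MRPL16 and MRPL27 are the first in alphabetical order among genes of the family with a CCAAT within 250 bases before the start and no peak in any list. Their stretches are chr11:59810847-59810946, from base 168 to base 69, and chr17:50373211-50373310, from base 126 to base 27, both on the minus strand.
MRPL16: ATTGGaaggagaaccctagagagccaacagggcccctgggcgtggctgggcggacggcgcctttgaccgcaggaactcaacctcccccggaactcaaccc
MRPL27: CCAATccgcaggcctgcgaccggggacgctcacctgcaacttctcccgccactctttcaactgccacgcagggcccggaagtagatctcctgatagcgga

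The family as a whole was bound about as often as protein-coding genes in general. In the edited libraries, sgCCAAT2a had a peak at 7 of 77 genes (9.09%, exact 95% interval 3.73 to 17.8%), against 8.90% of all protein-coding genes, and sgCCAAT2b at 7 of 77, against 9.27%. In the controls, sgCtrl1 had a peak at 12 genes (15.6%, interval 8.32 to 25.6%), against 12.6% of all genes, and sgCtrl2 at 16 (20.8%, interval 12.4 to 31.5%), against 16.8%. In RH4 cells, NFYB and NFYC each had a peak at 13 genes (16.9%, interval 9.31 to 27.1%), against 15.0% and 15.3% of all genes. The interval of the family held the share of all genes in each of the 6 lists, so at this number of genes no difference from the background was detectable. The plot of bound shares by list sets these values side by side.

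**Figure D1:**
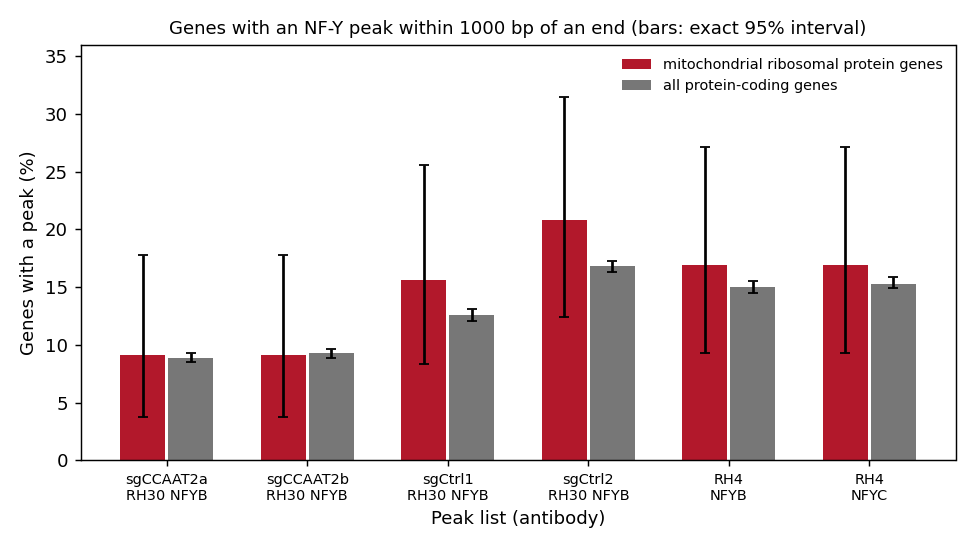
The bars give the percent of genes with an NF-Y peak within 1000 bp of an end, for mitochondrial ribosomal protein genes (77 genes, left bar of each pair) and all protein-coding genes (20037 genes, right bar), in each of the 6 peak lists, with exact 95% intervals. The family ran between 9.09% in each edited list and 20.8% in sgCtrl2, and its interval held the share of all genes in every list.

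Counted over lists, 20 of the 77 genes (26.0%, interval 16.6 to 37.2%) were bound in at least 1 list, against 21.7% of all genes, and 7 (9.09%) in all 6 lists, against 7.03%. Both edited lists held 7 genes, against 8.12% of all genes, both control lists held 10 (13.0%), against 11.3%, and both RH4 lists held 12 (15.6%), against 13.5%. Within the family, 57 genes (74.0%) had no peak in any list, against 78.3% of all genes, and 7 had one in all 6. When a peak counted only for the gene with the nearest end, 3 genes had one in all 6: MRPL4, MRPL18 and MRPS30.

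**Figure D2:**
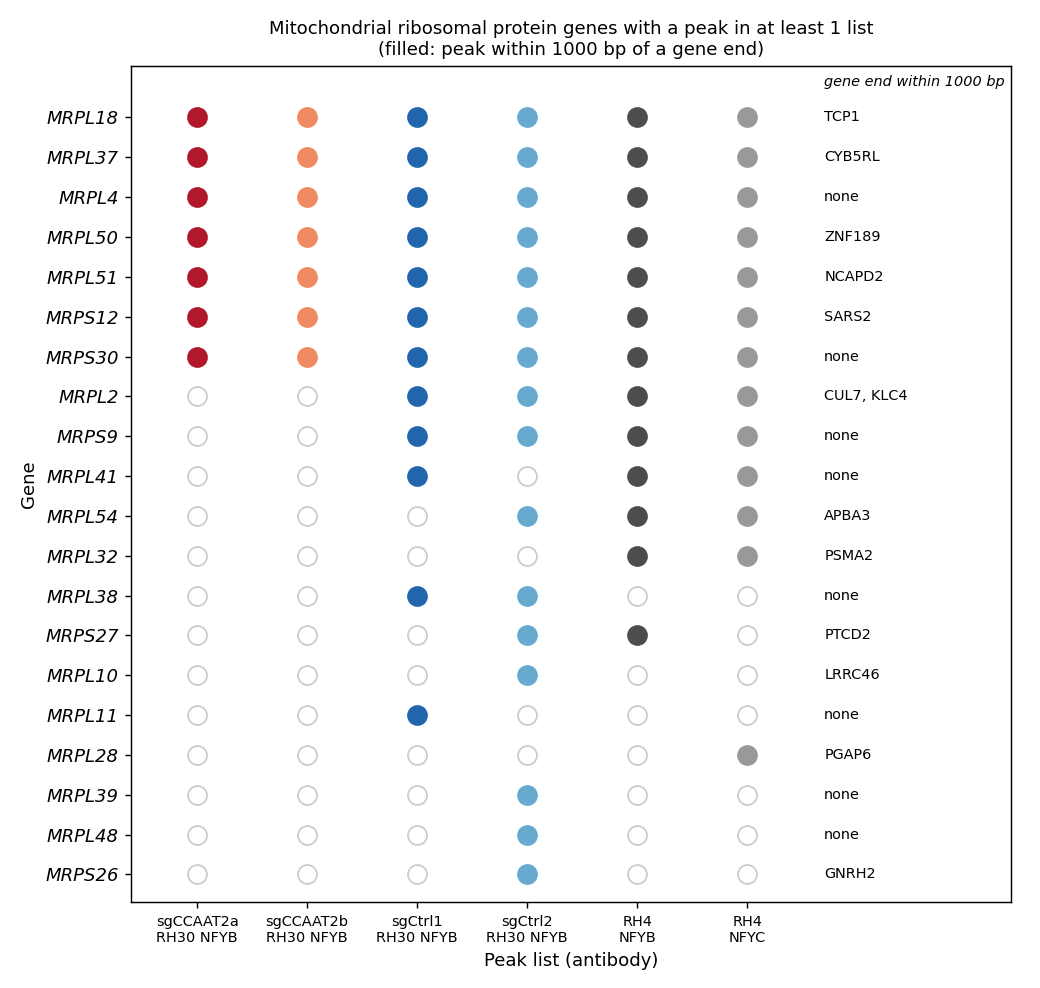
Each row is 1 of the 20 mitochondrial ribosomal protein genes with a peak in at least 1 list, and each column is 1 peak list, edited RH30 first. Filled circles mark a peak within 1000 bp of a gene end, and the right column names other protein-coding genes with an end within 1000 bp of the gene's 5′ end (of either end where no strand is given). The 7 top rows are filled in all 6 lists, and the edited columns hold no other gene.

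MRPS12, the counterpart of bacterial S12 at the decoding centre of the small subunit, had its peak centre at -89, -75, -89 and -211 bp from the start in sgCCAAT2a, sgCCAAT2b, sgCtrl1 and sgCtrl2. The centre lay at -112 and -234 bp in RH4 NFYB and NFYC. A minus sign means before the start, and this order of lists is kept below. These centres all fell in or beside the 181 bp between the starts of MRPS12 and SARS2, where 4 CCAATs lie 157, 123, 76 and 27 bases before the MRPS12 start. The RH4 peaks at this promoter, 656 bp wide for NFYB and 564 bp for NFYC, held all 4 CCAATs, and the sgCtrl2 peak, centred nearer to SARS2, held 2 of them.

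MRPL4, the counterpart of universal protein uL4 in the large subunit, had its peak centre at -31, -49, -22, -6, -9 and 10 bp. No end of another protein-coding gene lay within 1000 bp of its start; noncoding genes were not searched. Its promoter holds 4 CCAATs, all as ATTGG, at 130, 53, 44 and 25 bases before the start. The 3 nearest the start lay inside the peak of every list, and the farthest lay inside the sgCCAAT2b and both RH4 peaks.

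MRPS30 was the other gene bound in all 6 lists with no end of another protein-coding gene within 1000 bp of its start. Its centres were at -103, -101, -91, -120, -110 and -96 bp. Its 2 CCAATs, 139 and 55 bases before the start, lay on either side of these centres and inside the peak of every list. MRPS30 has a small-subunit symbol, but its protein is named mL65 in the unified ribosomal nomenclature, which places it in the large subunit.

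MRPL18, the mitochondrial counterpart of uL18, shares 210 bp with TCP1, a subunit of the cytosolic chaperonin CCT. It was the member with 2 peaks in each list. The first was centred at -22, -1, -22, 23, 27 and -22 bp, over the start and with the single CCAAT, 60 bases before it, inside the peak of every list. The second was centred inside the gene, at 577, 519, 592, 619, 510 and 565 bp from the start. In the 4 RH30 lists the second peak stood earlier in file order than the first, at 43.9% against 59.2% in sgCCAAT2a and at 18.4% against 35.7% in sgCtrl2.

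MRPL37, MRPL50 and MRPL51 encode proteins of the large subunit with mitochondrial names (mL37, mL50 and mL51), which mark proteins without a bacterial counterpart. MRPL37, divergent from CYB5RL at 137 bp, had its centre at -16, -36, -9, 10, -81 and -42 bp, around a pair of ATTGG 47 and 38 bases before the start that lay inside the peak of every list. MRPL50, divergent from the zinc finger gene ZNF189 at 233 bp, had its centre at -91, -101, -137, -154, -78 and -78 bp. Its single ATTGG, 40 bases before the start, lay inside the edited and RH4 peaks but outside both control peaks, whose centres were nearer to ZNF189. The nearer edges of the control peaks lay 43 bp from the gene in sgCtrl1 and 56 bp in sgCtrl2, a short way beyond the ATTGG. What lies behind this difference was not tested.

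The MRPL51 peaks common to all 6 lists lay on the neighbour's side of the promoter. They were centred at -657, -674, -701, -675, -696 and -677 bp from its start, and thus 183, 166, 139, 165, 144 and 163 bp from the start of NCAPD2, 840 bp away. The 250 bases before NCAPD2 hold 4 CCAATs and the 250 bases before MRPL51 hold 0. Of these 4, the peaks held 2, 2, 3, 2, 4 and 4 in the order of lists. The 2 CCAATs marked in the NCAPD2 stretch lay outside the sgCCAAT2a, sgCCAAT2b and sgCtrl2 peaks. Further peaks were present at -145 bp in sgCtrl2, where MRPL51 had the nearest gene end, and at -430 bp in RH4 NFYC, 411 bp from NCAPD2. This gene was the outermost inside the window, with its peak edge 607 bp from the gene in sgCtrl1. Just outside the window were MRPL36, 1081 bp from an sgCtrl2 peak, and MRPL34, 1084 to 1154 bp from a peak in 5 lists.

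**Figure D3:**
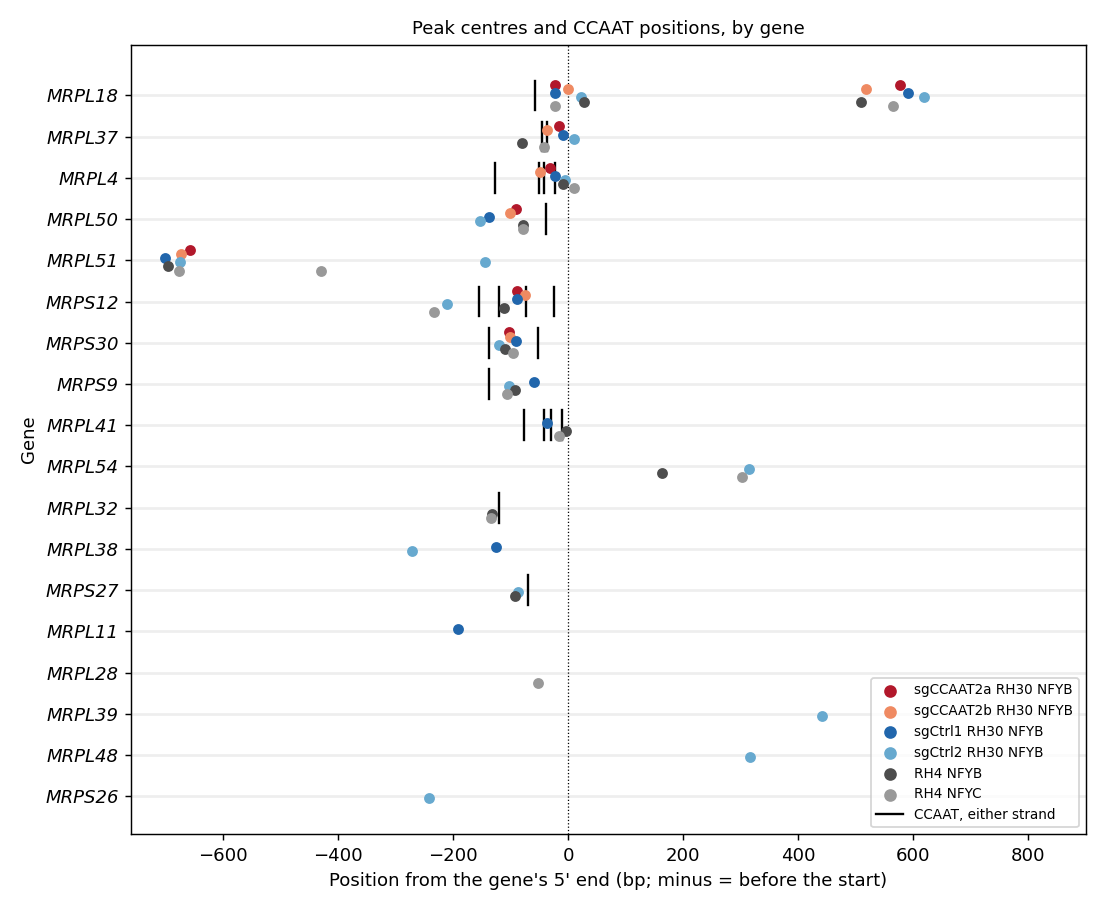
Each row is 1 of the 18 bound genes with a strand in RefSeq, in order of the number of lists that bind it, and the x axis is the distance from the 5′ end in bp (minus: before the start). Points are peak centres, coloured by list with edited RH30 first, and vertical ticks are CCAATs on either strand in the 250 bases before the start. In 6 of the 7 top rows the centres lie between -234 and 27 bp, apart from the second MRPL18 peaks. The single MRPL50 tick, 40 bases before the start, lies outside both control peaks. MRPL51 has no tick, and its centres lie at -657 to -701 bp in every list. It has 1 more at -145 bp in sgCtrl2 and 1 at -430 bp in RH4 NFYC.

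Across the lists, the median distance of the peak centre from the 5′ end was -89.0 bp in sgCCAAT2a, -75.0 bp in sgCCAAT2b, -89.0 bp in sgCtrl1, -95.0 bp in sgCtrl2, -86.5 bp in RH4 NFYB and -65.5 bp in RH4 NFYC. Over all protein-coding genes the medians were -96.5, -96.0, -95.0, -83.0, -92.0 and -96.0 bp in the same lists. RH30 peaks have 1 width per list (153, 163, 189 and 197 bp), whereas the family's RH4 peaks were 271 to 656 bp wide for NFYB and 76 to 564 bp for NFYC.

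Promoter sequences were compared for the 69 genes of the family with a RefSeq start sequence, by searching the 250 bases before the start for CCAAT on both strands (CCAAT or ATTGG; these can overlap by 2 letters, which occurred in no window of the family). CCAAT was found in 19 of 69 (27.5%, interval 17.5 to 39.6%), against 5460 of 15842 promoters of all genes (34.5%). It was found in 6 of the 7 genes bound in all 6 lists (85.7%), against 84.4% of all genes bound in all 6. It was found in 4 of the 11 bound in 1 to 5 lists (36.4%), against 51.6%, and in 9 of the 51 bound in no list (17.6%), against 26.0%. The RefSeq start of the sequence was over 100 bp from the 5′ end of the gene, around which peaks were counted, for 7 of the 69 genes, and for MRPL44 it was 6609 bp away. Without these genes, a setting added after the values were seen, CCAAT was found in 18 of 62 (29.0%), against 35.4% of all genes, and in 8 of the 45 bound in no list (17.8%), against 26.0%. A match is a description of these letters and not of binding, and no match says only that the letters are not in this window.

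The median place of the CCAATs also differed between bound and unbound genes of the family, with overlapping ranges. The 14 CCAATs of the genes bound in all 6 lists came from 6 genes, with 4 each in MRPL4 and MRPS12. They lay a median of 54.0 bases before the start (range 25 to 157). Of them, 5 were on the strand of the gene and 9 on the other. All 14 fell inside a peak of at least 1 list, and 9 inside the peaks of every list. The 7 CCAATs of genes bound in 1 to 5 lists came from 4 genes, and MRPL41 held 4 of the 7. They lay a median of 71.0 bases before the start (range 12 to 140), and all 7 fell inside a peak of at least 1 list. The 10 CCAATs of 9 unbound genes lay a median of 180 bases before the start (range 22 to 240), or 168 without MRPL44. These differences in position were not tested, and the positions over all genes were not computed.

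Promoters with 2 or more CCAATs were found in 4 of the 7 genes bound in all 6 lists (57.1%), against 58.2% of all genes bound in all 6. The 4 were MRPL4, MRPS12, MRPL37 and MRPS30. Among other genes of the family, MRPL41 had 4 CCAATs, 79, 44, 32 and 12 bases before the start, and MRPL47 had 2, at 125 and 117 bases. MRPL41 was bound in sgCtrl1 and both RH4 lists, and MRPL47 in no list. The unbound genes with a CCAAT were MRPL16, MRPL27, MRPL43, MRPL44 (at its distant start), MRPL47, MRPS17, MRPS18A, MRPS18C and MRPS21.

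The large subunit was bound at a higher share than the small subunit in each of the 6 lists, but never by more than the counting error. In each edited list, 5 of 49 large-subunit genes (10.2%) and 2 of 28 small-subunit genes (7.14%) were bound, a difference of 3.06 percentage points (Newcombe 95% interval -13.5 to 15.7). In sgCtrl1 the counts were 9 (18.4%) and 3 (10.7%), a difference of 7.65 points (-10.8 to 22.4), and in sgCtrl2 they were 11 (22.4%) and 5 (17.9%), a difference of 4.59 points (-15.5 to 21.3). In RH4, NFYB was found at 9 (18.4%) and 4 (14.3%), a difference of 4.08 points (-15.1 to 19.7), and NFYC at 10 (20.4%) and 3 (10.7%), a difference of 9.69 points (-9.05 to 24.7). In the edited lists the sign turned to -1.02 points when the later entries of each list, from the median place on, were left out.

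Unified protein names give another view of the subunits, added after the values were seen. These names put MRPS30 and MRPS18A in the large subunit, which leaves 51 large-subunit and 26 small-subunit genes. On that division 6 of 51 large-subunit genes (11.8%) and 1 of 26 small-subunit genes (3.85%), MRPS12, were bound in all 6 lists. The differences between subunits were then 7.92 to 13.9 points over the 6 lists, and their intervals still held 0.

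The unified names also mark where a protein is found: u for proteins shared by bacteria, archaea and eukaryotes, b for those shared with bacteria alone, and m for those particular to mitochondria. Of 26 genes with a u name, 7 (26.9%) were bound in at least 1 list: MRPL2, MRPL4, MRPL10, MRPL11, MRPL18, MRPS9 and MRPS12. Of 31 genes with an m name, 11 (35.5%, interval 19.2 to 54.6%) were bound in at least 1 list, and 10 of these in sgCtrl2 (32.3%, interval 16.7 to 51.4%). Of 18 genes with a b name, 2 (11.1%, interval 1.38 to 34.7%) were bound, MRPL32 and MRPL28, and both in RH4 alone. Over all genes the share in at least 1 list was 21.7%, and that in sgCtrl2 16.8%. The interval of each class held 21.7%. In each RH30 list 0 of the 18 b genes were bound, which allows a share of up to 18.5% by the exact interval and so includes the 8.90 to 16.8% of all genes in these lists. MRPS24 and MRPS28 had no such name in the table. The division by name was not tested, and the intervals of the 3 classes overlap.

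Sharing of the promoter was defined by another protein-coding gene with an end within 1000 bp of the 5′ end, or of either end for the 8 genes without a strand. Of the 77 genes, 37 shared their promoter by this definition and 40 did not, with 26 of 49 large-subunit and 11 of 28 small-subunit genes shared. The class marks a nearby gene end of any kind. It includes neighbours on the same strand, such as PGAP6 at MRPL28 and GNRH2 at MRPS26, where no promoter need be shared. In each edited list 5 of 37 shared promoters (13.5%) and 2 of 40 unshared promoters (5.00%) were bound. The same comparison over all genes gave 16.0% and 7.05% in sgCCAAT2a, and 16.9% and 7.28% in sgCCAAT2b. In sgCtrl1 the family had 6 shared (16.2%) and 6 unshared (15.0%), against 20.9% and 10.4% over all genes. In sgCtrl2 it had 10 shared (27.0%) and 6 unshared (15.0%), against 27.0% and 14.1%.

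Each RH4 list held 9 shared (24.3%) and 4 unshared promoters (10.0%) of the family. All genes had 25.5% and 12.3% for NFYB, and 25.4% and 12.7% for NFYC. The difference between shared and unshared promoters of the family ran from 1.22 points in sgCtrl1 (-15.3 to 18.1) to 14.3 points in each RH4 list (-2.72 to 31.2), and all 6 intervals held 0. When a peak counted only for the gene with the nearest end, a setting added after the values were seen, the sign turned in 3 lists: -6.89 points in sgCtrl1, -4.19 in sgCtrl2 and -1.89 in RH4 NFYB. A window of 500 bp also turned it in sgCtrl1, to -1.49 points. A peak between close starts is counted for both neighbours in the first definition.

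**Figure D4:**
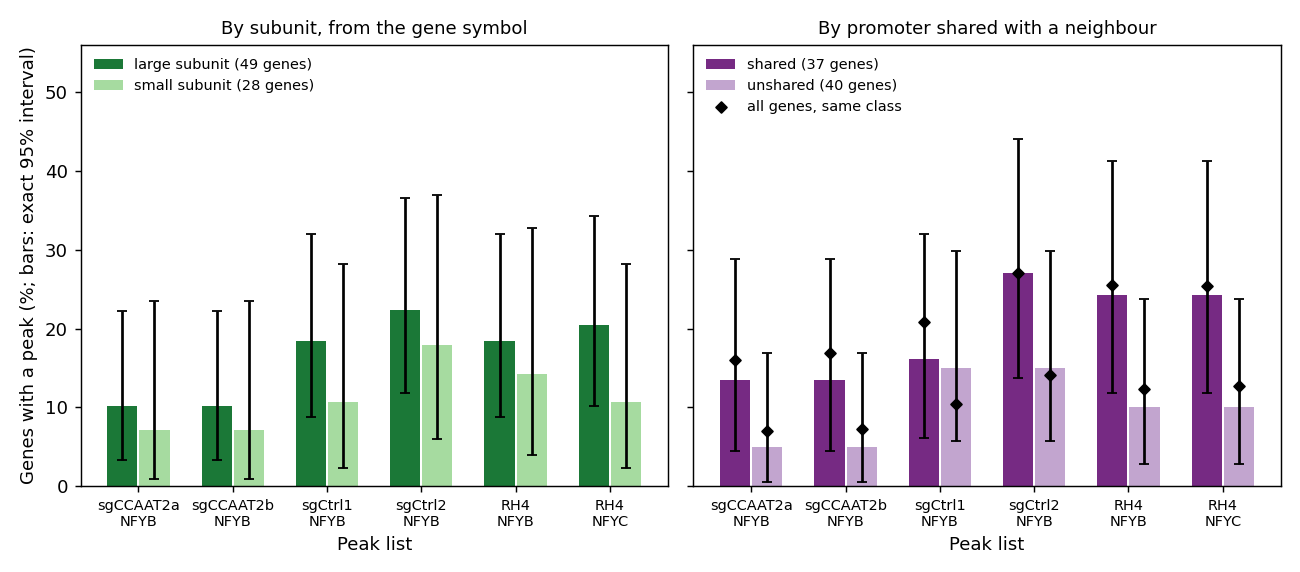
The left panel gives the percent of genes bound for large-subunit (49 genes) and small-subunit (28 genes) symbols in each of the 6 lists, and the right panel gives shared (37 genes) and unshared promoters (40 genes), with exact 95% intervals. Black diamonds in the right panel give shared and unshared promoters over all protein-coding genes. Large-subunit bars stand above small-subunit bars in every list, from 10.2% against 7.14% in the edited lists to 22.4% against 17.9% in sgCtrl2, and the intervals overlap throughout.

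A gene on the other strand whose 5′ end lies within 1000 bp, here called a divergent partner, was found for 23 genes of the family. For MRPL9, MRPL14, MRPL36, MRPS7 and MRPS34 the distance between the starts was -527, -819, -27, -484 and -324 bp. Minus here means that the partner's start lies inside the gene, so these pairs overlap. None of these genes of the family had a peak in any list. The same definition was used for all genes. Of these, 5 (21.7%, interval 7.46 to 43.7%) were bound in all 6 lists, against 16.6% of all genes with a divergent partner. In the lists taken singly, 5 were bound in sgCCAAT2a (against 20.6% of all such genes), 5 in sgCCAAT2b (against 21.7%) and 5 in sgCtrl1 (against 26.4%). In sgCtrl2, 7 were bound (30.4%, against 33.1%), in RH4 NFYB 8 (34.8%, against 31.6%) and in RH4 NFYC 7 (30.4%, against 30.9%). When divergent genes were set against all other genes of the family with a strand, the difference was 17.4 points in each edited list (1.59 to 37.8), 26.1 in RH4 NFYB (6.33 to 47.1) and 19.6 in RH4 NFYC (0.381 to 40.9). These 4 intervals lay above 0, and those of sgCtrl1 and sgCtrl2 held 0. Genes with a divergent partner were also bound more often than protein-coding genes in general. In the edited lists their share was 20.6% against 8.90% in sgCCAAT2a, and 21.7% against 9.27% in sgCCAAT2b. In RH4 it was 31.6% against 15.0% for NFYB, and 30.9% against 15.3% for NFYC. Protein-coding genes in general include those with a partner and those without a strand, unlike the comparison group within the family. With that limit, the direction is not particular to this family.

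The divergent genes were also divided by whether a CCAAT stood within 250 bases before either start of the pair. Of the 10 genes with one, 7 were bound in at least 1 list and 5 in all 6. Of the 13 without, 1 was bound, MRPL54. Together 8 of 23 were bound in at least 1 list, against 42.2% of all genes with a divergent partner. The 13 include the overlapping pairs named above and both MRPL46 and MRPS11, which face each other. The division by CCAAT was not made over all genes with a divergent partner, so it cannot be read as particular to the family. For 3 of the 13, a sequence start lay over 100 bp from its gene's 5′ end. The partners TCP1, CYB5RL, ZNF189, NCAPD2 and SARS2 were each bound in all 6 lists, as were the genes of the family opposite them. PSMA2, a subunit of the proteasome core, lies 202 bp from MRPL32, and both were bound in 2 lists. PTCD2, which encodes a mitochondrial protein of the pentatricopeptide type, lies 133 bp from MRPS27, and both were bound in 2 lists. A peak in such an interval cannot be given to one gene of the pair.

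The exceptions were MRPL27 with EME1 at 45 bp, MRPS18C with HELQ at 175 bp and MRPS18B with PPP1R10 at 597 bp, which had 1, 1 and 2 CCAATs and no peak. MRPL54 was the reverse case. It was bound in sgCtrl2 and both RH4 lists at 314, 164 and 303 bp inside the gene, with no CCAAT before its start and 0 lists for its partner APBA3. MRPL46 and MRPS11, the large-subunit and small-subunit members that face each other at 320 bp, had no CCAAT and no peak in any list.

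Between edited and control RH30 libraries, the genes bound in the edited lists were the same 7 in both and were all bound in both controls. Of the 10 genes bound in both control lists, 7 were bound in both edited lists (70.0%, interval 34.8 to 93.3%), against 66.3% of all genes bound in both controls. The other 3 were bound in neither edited list (30.0%, interval 6.67 to 65.2%), against 21.6%, and 0 were bound in 1 edited list, against 12.1%. The count in neither edited list was 9 when sgCtrl2 was the only control used and 5 when sgCtrl1 was. The share of all genes lay inside the family's counting interval in each case with both controls. No gene of the family, 0 of 77, was bound in an edited list and in neither control, against 0.289% of all genes, and 0 in both edited lists and neither control, against 0.105%.

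The 3 genes bound in both controls and neither edited list were MRPL2, MRPL38 and MRPS9. MRPS9, the counterpart of uS9 and a head protein of the small subunit, had its centre at -59 and -103 bp in sgCtrl1 and sgCtrl2 and at -92 and -107 bp in RH4 NFYB and NFYC. Its single CCAAT, 140 bases before the start, lay inside all 4 of these peaks. MRPL38 (mL38) was centred at -126 bp in sgCtrl1 and -271 bp in sgCtrl2 and was in neither RH4 list.

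MRPL2, the counterpart of uL2, which helps to form the peptidyl transferase region, was bound in both controls and both RH4 lists at its higher coordinate end, on chr6:43054029-43059863. The peak centre lay 340, 387, 324 and 335 bp inside the gene in sgCtrl1, sgCtrl2, RH4 NFYB and NFYC. The nearest end belonged to KLC4, a kinesin light chain gene, at 108, 155, 92 and 103 bp, and KLC4 was bound in 4 lists.

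A single control list held most of the remaining RH30 peaks. Of the 6 genes bound in sgCtrl2 and not in sgCtrl1, all 6 were bound in neither edited list, against 94.4% of all such genes. They were MRPL10, MRPL39, MRPL48, MRPL54, MRPS26 and MRPS27. MRPL11 and MRPL41, bound in sgCtrl1 and not in sgCtrl2, were also in neither edited list, against 53.6% of such genes. The 2 edited lists differed from each other at 0 of 77 genes, against 1.92% of all genes, and the 2 controls at 8 of 77, against 6.84%.

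Depth and peak number moved with these groups. The edited libraries held 21.2 and 28.2 M tags with 1.22 and 1.46% of tags in 2451 and 2558 peaks, for sgCCAAT2a and sgCCAAT2b. The controls held 13.9 and 10.5 M tags with 2.40 and 3.10% in 4025 and 6687 peaks, for sgCtrl1 and sgCtrl2. The part of these differences in the absence of peaks from the edited lists was not tested. In RH4, 3243 peaks were listed for NFYB and 3760 for NFYC, and their depth is unknown.

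The authors' deposited tables give sgCtrl2 peaks that were higher than in another library. They require a 2.5-fold difference and a Poisson p of 0.001, compare 1 library with 1 library, and all share sgCtrl2. Of the 16 genes with an sgCtrl2 peak, the authors' deposited table over sgCCAAT2a listed 6 (37.5%), against 56.6% of all genes with an sgCtrl2 peak. The authors' deposited table over sgCCAAT2b listed 5 (31.2%), against 50.9%. The authors' deposited table over sgCtrl1 listed 2 (12.5%), against 11.7%. None of the authors' deposited tables listed 8 of the 16 genes, against 36.6% of all genes with an sgCtrl2 peak.

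By name, the authors' deposited table over sgCCAAT2a held MRPL10, MRPL38, MRPL39, MRPL54, MRPS26 and MRPS27. The authors' deposited table over sgCCAAT2b held MRPL38, MRPL39, MRPL48, MRPL54 and MRPL51, the last through its second peak at -145 bp. The authors' deposited table over sgCtrl1 held MRPL39 and MRPL48, so these genes were higher in sgCtrl2 than in a control as well. MRPL38 and MRPL54 were in the authors' deposited tables over both edited libraries and not in that over sgCtrl1. MRPL2 and MRPS9 had no peak in either edited list, yet were in none of the authors' deposited tables. Absence of a peak call and a listed difference are thus different measures at these genes.

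Among genes bound in all 6 lists, the authors' deposited table over sgCCAAT2a held 0 of 7 genes of the family, against 475 of 1409 genes in general (33.7%). The authors' deposited table over sgCCAAT2b held 1 of 7, against 354 of 1409 (25.1%). With 7 genes, exact intervals are wide, and no difference from genes in general was detectable for either table.

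**Figure D5:**
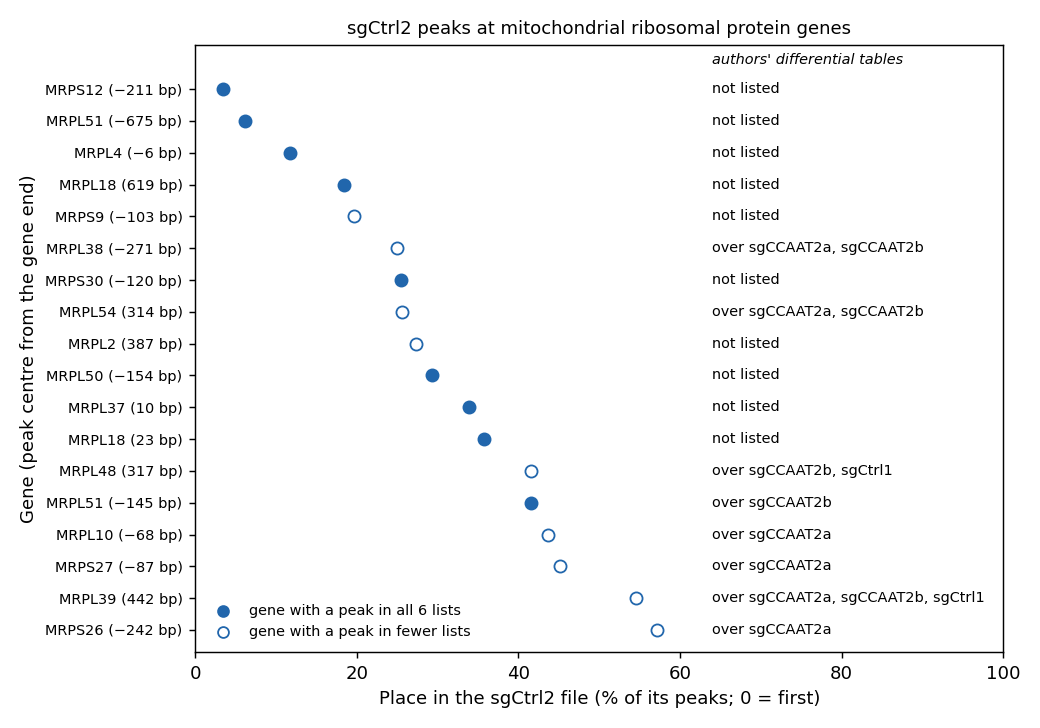
Each row is 1 sgCtrl2 peak at a mitochondrial ribosomal protein gene, with the distance of its centre from the gene end in brackets, and the x axis is its place in the order of the sgCtrl2 file (percent of 6687 peaks, 0 = first). Filled circles are genes with a peak in all 6 lists, open circles are others, and the right column gives the authors' deposited tables that list the peak. MRPS12 stands first at 3.38% and MRPS26 last at 57.1%, and 8 of the 9 peaks of the genes bound in all 6 lists are in no table.

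The files give no peak height, and the order of the entries is the only mark of rank. The sort key is not stated. In sgCtrl2, the MRPS12 peak was number 226 of 6687 (3.38%), MRPL51 number 416 (6.22%) and MRPL4 number 782 (11.7%). The 9 peaks of genes bound in all 6 lists stood at a median of 25.5%, against 12.8% for the peaks of all genes bound in all 6 lists. The same MRPS12 promoter stood at 11.3% in sgCCAAT2a, 8.56% in sgCCAAT2b and 5.59% in sgCtrl1, first among the family in each of the 4 RH30 lists. MRPL37 stood last among the family in both edited lists, at 66.9% in sgCCAAT2a and 63.1% in sgCCAAT2b.

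Between the cell lines, 11 genes of the family were bound in both RH4 lists and at least 1 RH30 list, against 11.8% of all genes. MRPL32 was the exception; its protein is the counterpart of bacterial L32 and is matured by the m-AAA protease in yeast and mouse. It was bound in RH4 NFYB and NFYC at -132 and -134 bp and in no RH30 list, a pattern held by 1.64% of all genes. Its ATTGG, 122 bases before the start, lay inside both RH4 peaks. The reverse pattern, all 4 RH30 lists and no RH4 list, was held by 0 of the 77 genes and 0.210% of all genes. The cell lines differ between these lists, the RH4 caller is not given and the RH4 depth is unknown, and the parts of line, caller and depth cannot be told apart.

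Genes in 1 list alone numbered 6 of 77, against 5.71% of all genes. MRPL10, MRPL39, MRPL48 and MRPS26 were bound in sgCtrl2 alone, against 3.64% of all genes. MRPL10 encodes a protein at the base of the ribosomal stalk, and its peak lay 61 bp from LRRC46. MRPL39, whose protein resembles part of threonyl-tRNA synthetase, and MRPL48 were bound at 442 and 317 bp inside the gene, and MRPS26 was bound at -242 bp, 63 bp from GNRH2. MRPL11, which encodes another protein of the stalk base, was bound in sgCtrl1 alone at -191 bp, and MRPL28 in RH4 NFYC alone at -53 bp. Of these 6 genes, those with a RefSeq promoter sequence held no CCAAT in the 250 bases before the start. For MRPL39 that sequence start lay 378 bp inside the 5′ end of the gene. The matching share over all genes in 1 list alone was not computed. Among genes bound in 1 to 5 lists, a CCAAT was found in 36.4% of the family and 51.6% of all genes.

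Other genes of mitochondrial translation were taken from lists made with earlier results of these data known. Of 5 mitochondrial ribosome subunits not named MRP, PTCD3 was bound in both edited lists, sgCtrl1 and both RH4 lists but not in sgCtrl2, and AURKAIP1 in both RH4 lists alone. That is 20.0% of the 5 in both edited lists and sgCtrl1, 0 in sgCtrl2 and 40.0% in each RH4 list. Each exact interval held the share of all genes in that list, given next. Of 24 genes of mitochondrial ribosome assembly, 1 was bound in sgCCAAT2a, 3 in sgCCAAT2b, 5 in sgCtrl1, 8 in sgCtrl2, 5 in RH4 NFYB and 4 in RH4 NFYC. These were 4.17, 12.5, 20.8, 33.3, 20.8 and 16.7% of the list, against 8.90, 9.27, 12.6, 16.8, 15.0 and 15.3% of all genes, and each exact interval held the share of all genes. MPV17L2 was the 1 of them in all 6 lists. METTL15 and METTL17, which encode methyltransferase-family proteins that act on the small subunit, were bound in all lists but sgCCAAT2a. TFB1M, which methylates the small-subunit RNA, was bound in both controls and both RH4 lists.

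Of 14 mitochondrial translation factors, MTRFR, a release factor-like rescue protein, was bound in both edited lists, sgCtrl1 and both RH4 lists but not in sgCtrl2. TUFM, the mitochondrial elongation factor Tu, was bound in both RH4 lists. These were 7.14% of the 14 in both edited lists and sgCtrl1, 0 in sgCtrl2 and 14.3% in each RH4 list. Over all genes the shares were 8.90, 9.27, 12.6, 16.8, 15.0 and 15.3%, and each exact interval held the share of its list. Of 10 genes of mitochondrial transcription and its regulators, 0 were bound in sgCCAAT2a, 1 in sgCCAAT2b, 2 in sgCtrl1, 2 in sgCtrl2, 2 in RH4 NFYB and 3 in RH4 NFYC. Each exact interval held the share of all genes in that list, 8.90 to 16.8% over the lists. POLRMT, the mitochondrial RNA polymerase, was bound in all lists but sgCCAAT2a. PPRC1 was bound in sgCtrl1 and RH4 NFYC, ESRRA in both RH4 lists and TFB2M in sgCtrl2 alone. The genes of these lists bound in fewer than 6 peak lists were named after their values were seen, and their counts are too small to set one list against another.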

How the data were processed

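CUT&RUN peak lists of NFYB in RH30 and of NFYB and NFYC in RH4 were used, 1 library each; 2 libraries with IgG were not analysed here. Values are peak positions in bp on hg38, deposited by the authors without heights. The score deposited by the authors is 1 in every entry. The RH30 calls were made library by library with HOMER's findPeaks program against 1 input directory, per the file headers. Peaks required 2-fold more tags than input (Poisson p 0.0001) and 4-fold more than the local 10000 bp. For RH4, the caller is not given in the sources here. The submitters' processing notes name HOMER, Bowtie2, MACS2, Trimmomatic, FastQC, deepTools and bedtools, without versions or roles. HOMER's differential peak program made the authors' differential tables, per the file headers.

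Genes and promoter sequences were RefSeq GRCh38.p14. A gene was bound when a peak came within 1000 bp of an end of the gene, by at least 1 bp of overlap with that window. Shares have exact Clopper-Pearson intervals (scipy 1.17.1), and differences have Newcombe intervals. No p-value was computed, since each group has 1 library. Overlap code was tested on simulated lists, where 18 of 18 counts equalled those of bedtools 2.31.1. MRPL2, MRPL10, MRPL13, MRPL15, MRPL21, MRPL23, MRPL35 and MRPS28 were not matched to a start sequence.

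The genes and lists were chosen with earlier results of these data known. Genes bound in at least 1 list could be named. Positions were given for those bound in all 6 lists, in both controls and neither edited list, or in both RH4 lists and no RH30 list. Sequences were shown for genes bound in all 6 lists, divergent pairs first, and for 2 with a CCAAT and no peak. Other named positions were chosen after seeing the values. Alternatives were windows of 500 and 3000 bp, the peak centre, 5′ ends alone, the earlier or wider entries of each list, closer or divergent neighbours, lists left out, and other motif settings.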

Additional observations from a re-analysis of the deposited data

How the results depend on the processing

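Counts of bound genes and differences between classes were recomputed under 18 other settings, and 0 called values turned their sign; differences whose interval held 0 did turn, as given above. Windows of 500 bp (24 of 24 results), the peak centre in the window (21 of 21) and 5′ ends alone (21 of 21) left each count within 1.5 times its reported value and each difference within its interval. The window of 500 bp dropped MRPL51 from both edited lists and sgCtrl1. The window of 3000 bp raised the genes in the authors' deposited table over sgCCAAT2b to 8, and those in the authors' deposited table over sgCtrl1 to 4. With RH4 entries no wider than the median of their list left out, RH4 NFYC bound 6 genes. Assigning a peak to the gene with the nearest end, added after seeing the data, left 10 genes in sgCtrl2, 7 in RH4 NFYB and 3 in all 6 lists, with 4 of the genes bound in both controls also bound in both edited lists. Genes bound in the remaining control and in neither edited list numbered 9 without the sgCtrl1 list and 5 without the sgCtrl2 list, against 3 with both. A longer core of 7 bases around CCAAT was found in 11 promoters of the family, against 19 for CCAAT. Lists left out of the 6-list count, added after seeing the data, moved it by less than 1.5 times. Subunits by unified name, also added, took the small-subunit genes bound in all 6 lists to 1, against 2 by symbol, and the difference in each edited list to 7.92 points, against 3.06, inside the interval of -13.5 to 15.7. No paired analysis was possible because each guide and antibody has 1 library. Absence from a list is not absence of binding, and 77 genes give intervals wider than most differences here.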
